A study of Mus musculus with 2 samples.

Results

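The 10 genes of helper lineage transcription factors were compared between regulatory T cells (Tregs) of DNR mice and Tregs of wild-type (WT) mice: Tbx21, Eomes, Gata3, Maf, Bcl6, Ahr, Rora, Prdm1, Hopx and Id2. Membership went by gene name: a probe set belonged to the group if the platform annotation gave it exactly 1 gene and that gene was on this list. This gave 29 probe sets for the 10 genes, out of 34945 probe sets with a single gene for 18193 genes. The DNR array held total RNA of splenic CD4+Foxp3+ Tregs from naive mice with a dominant negative TGF-beta receptor II, and the WT array held RNA of the same population from WT mice. Both genotypes were on the C57BL/6 background and 10 weeks old, and the cells were sorted by flow cytometry. The sources used here do not give the promoter behind the dominant negative receptor, the number of mice per RNA or the way Foxp3 was detected for sorting. There was 1 array per genotype, so each difference below is one between 2 RNA samples, with no replicate check and no test.

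CD4+ T cells take on helper programmes that are each set by a lineage factor: T-bet for Th1 cells, GATA3 for Th2 cells, ROR proteins for Th17 cells and Bcl6 for follicular helper cells. Tregs can switch on the same factors beside Foxp3, and such Tregs are known to control the matching type of response. Blimp-1 and c-Maf are known for effector Tregs that make interleukin-10, and the aryl hydrocarbon receptor senses small molecules from diet, microbes and pollutants. TGF-beta is known to restrain T-bet and GATA3 in activated T cells.

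The arrays report 1 signal per probe set, made with the MAS5 algorithm on a linear scale and scaled to a common mean. Array medians were 110.9 for DNR and 91.0 for WT, and the higher one served as a floor that replaced every lower value. Because the WT median lay below this floor, fewer probe sets exceeded it on the WT array than on the DNR array. Genes above the floor in DNR Tregs alone are thus favoured over genes above it in WT Tregs alone. The 18 hybridisation spike-in probe sets were without exception brighter in the DNR hybridisation, with a median of 1.95-fold. Of 24 poly-A spike-in probe sets, 20 were brighter there, with a median of 1.30-fold. The ratio of 3′ to 5′ signal, a sign of RNA quality, was 2.28 in DNR and 2.07 in WT RNA for Gapdh, and 6.31 in DNR and 4.98 in WT RNA for Actb. Markers of the labelled cell type were present: Foxp3 read 4550 in DNR and 3754 in WT Tregs, and the T cell receptor complex gene Cd3e 4388 in DNR and 4668 in WT Tregs. The Treg genes Ctla4 (52119 in DNR and 41217 in WT), Ikzf2 (23891 in DNR and 16696 in WT) and Il2ra (3969 in DNR and 4591 in WT) were bright, and Cd4 was dimmer (415 in DNR and 595 in WT). All 7 T cell and Treg markers with a probe set were measured on both arrays, and none differed by 2-fold.

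All 10 factors exceeded the floor in both genotypes by at least 1 probe set. By the brightest probe set of each, 3 were at least 2-fold higher in DNR Tregs (Tbx21, Prdm1 and Maf) and 1 was at least 2-fold lower (Ahr). The other 6 differed by less than 2-fold. Of 11927 measured genes, 4.0% were at least 2-fold higher and 2.93% at least 2-fold lower. The 10 factors were chosen with earlier results of these data known, so an excess over these shares is not an independent result. Tbx21, Prdm1, Ahr, Bcl6 and Eomes had a geometric mean signal of 2 to 8 times the floor. Of the 3523 genes in that range that exceeded the floor on both arrays, 4.83% were at least 2-fold higher and 4.85% lower. Both shares exceeded those over all measured genes, but the sets are filtered differently. Measured genes also include those above the floor on 1 array alone, whose ratios are bounds. The median log2 ratio of DNR over WT was 0.15 over the 10 factors and 0.01 over all measured genes. The factors had no common direction: 6 were higher in DNR Tregs and 4 lower. Over all measured genes 51.4% were higher. Every factor exceeded the floor in both genotypes. Of the 9281 genes that did so, 46.5% were higher in DNR Tregs, with a median log2 ratio of -0.03. With 10 factors, the split does not set them apart from either share.

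**Figure D1:**
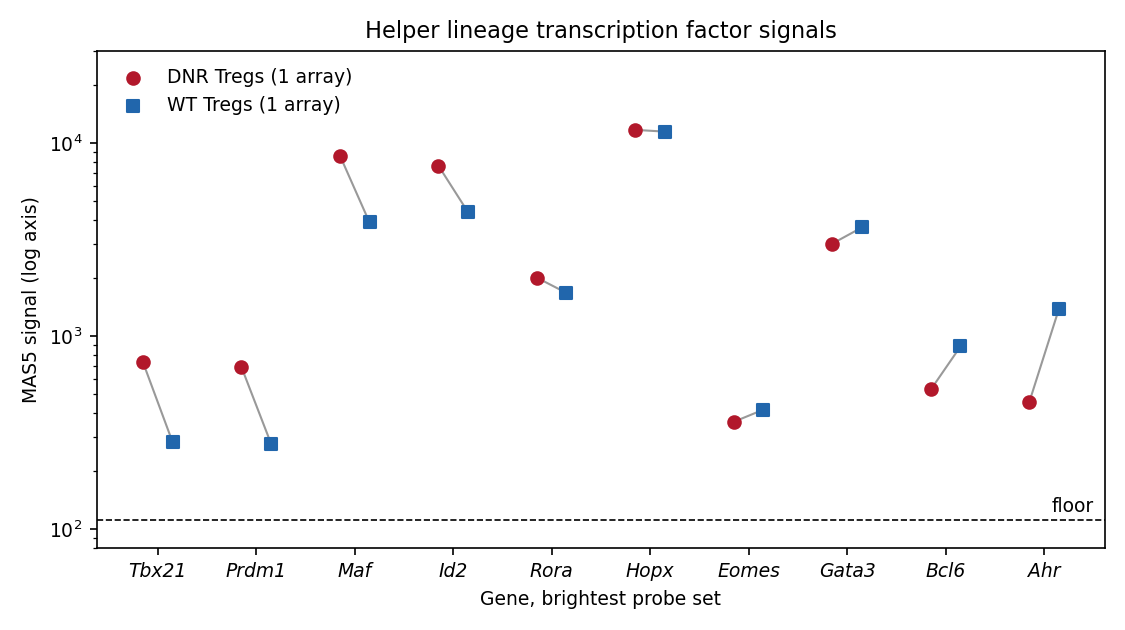
MAS5 signal (log axis) of the brightest probe set of each of the 10 genes on the DNR array (red circles) and the WT array (blue squares), ordered by the ratio of DNR over WT, with the floor as a dashed line. Tbx21, Prdm1 and Maf were at least 2-fold higher and Ahr 3.03-fold lower in DNR Tregs; heights of different genes come from different probes and are not comparable with each other.

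The only error that these data allow is the disagreement between probe sets of 1 gene. It was computed over the 3968 genes that had 2 or more probe sets brighter than the floor on each array, and gave a robust SD of 0.36 per probe set on the log2 scale. It holds no variation between mice, sorts or hybridisations. In 41.7% of these genes the brightest pair of probe sets went opposite ways, so small ratios carry little information on direction. Among the 29 probe sets of the helper factors, 24 exceeded the floor on each array and 5 on neither. Of the 24, 16 were higher and 8 lower in DNR Tregs. The matching share over the probe sets of all genes is not given here. There were 6 genes with at least 2 such probe sets: all of these went one way in 3 of them (Maf, Hopx and Eomes) and both ways in the other 3 (Id2, Rora and Bcl6). Tbx21, Gata3 and Prdm1 each have 1 probe set, so their ratios have no check within the array.

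**Figure D2:**
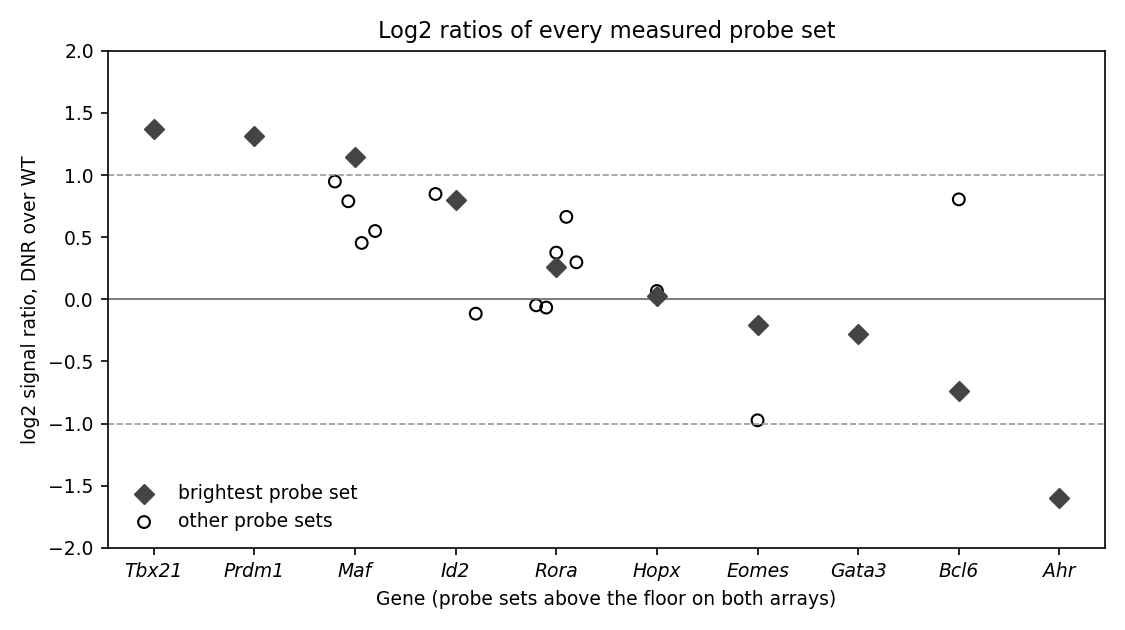
Log2 ratio of DNR over WT signal for each of the 24 probe sets that exceeded the floor on each array, by gene; filled diamonds are the brightest probe set of a gene, open circles its other probe sets, and dashed lines mark 2-fold. All 5 Maf probe sets lay above 0, while the pair for Bcl6 lay on opposite sides of it.

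Tbx21 and Prdm1 were the factors with the highest ratios, and these were nearly equal. Their promoters are shown because both genes were higher to the same degree and have a sequence in the reference table. The 250 bases before the annotated gene start are given 5′ to 3′ from RefSeq (build GRCm38.p6), with capitals for the SMAD box, the short motif that SMAD proteins of the TGF-beta pathway bind, as CAGAC or its reverse complement GTCTG.

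Tbx21, chr11:97115332-97115581, minus strand: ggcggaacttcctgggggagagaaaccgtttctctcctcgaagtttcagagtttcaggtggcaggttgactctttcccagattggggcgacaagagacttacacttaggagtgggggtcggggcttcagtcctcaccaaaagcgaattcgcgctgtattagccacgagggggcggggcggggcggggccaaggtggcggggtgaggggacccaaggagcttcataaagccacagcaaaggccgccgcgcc

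Prdm1, chr10:44458749-44458998, minus strand: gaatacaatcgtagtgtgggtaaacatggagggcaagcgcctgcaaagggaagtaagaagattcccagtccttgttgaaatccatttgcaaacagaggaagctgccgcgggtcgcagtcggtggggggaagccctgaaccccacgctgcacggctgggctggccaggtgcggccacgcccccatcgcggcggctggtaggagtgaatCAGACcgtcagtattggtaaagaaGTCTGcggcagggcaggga

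The Prdm1 window held 2 SMAD boxes, with first bases at -43 and -19 from the gene start, and the Tbx21 window held none. Of the 10 factors, 8 had 1 or 2 such windows in the table, 10 in all, and 3 of these held the motif (Prdm1, 1 of 2 for Hopx and 1 of 2 for Bcl6). Of all 32851 windows of this length 42.2% held it. The core of the aryl hydrocarbon receptor motif, GCGTG or CACGC, was in 3 of the 10 windows (Prdm1, Rora and 1 of 2 for Hopx) and in 28.2% of all windows. These are letter matches in one window per start and say nothing of binding.

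Tbx21 encodes T-bet, the T-box factor that directs Th1 differentiation and, in Tregs, control of type 1 responses. Its signal was 731 in DNR Tregs and 283 in WT Tregs. The probe set (1449361_at) was thus 2.59-fold brighter for DNR, a log2 ratio of 1.37. Among the 9281 genes that exceeded the floor on each array, 81 had a higher ratio. The WT value was 2.55 times the floor, a dim level at which a ratio depends on a small difference. In RNA of a sorted population, more cells with the transcript and more transcript per cell cannot be told apart.

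Eomes encodes Eomesodermin, the other T-box factor of T cells, which is known from cytotoxic T cells and natural killer (NK) cells. Unlike Tbx21, Eomes was not higher in DNR Tregs by either probe set. The brighter one (1435172_at) read 360 in DNR and 416 in WT RNA, 1.16-fold lower. The other (1426001_at) had 172 in DNR and 338 in WT Tregs, a log2 ratio of -0.97, just under the 2-fold threshold. The probe sets differed by 0.77 on the log2 scale, about as much as the larger of the 2 ratios, so the size of the Eomes difference is uncertain. NK markers summed to 1104 in DNR and 954 in WT Tregs over 4 genes: Klra8 and Klre1 were below the floor on both arrays, Ncr1 had 168 in DNR and 9.61 in WT Tregs, and the adaptor gene Tyrobp had 834 in DNR and 873 in WT Tregs. The part of such cells in the T-box values was not tested.

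Genes that T-bet and Eomes are known to act on were mostly brighter in DNR Tregs. Of 16 measured genes of the 18 listed, 12 were brighter in DNR Tregs and 4 dimmer; 5 of the 12 and none of the 4 passed 2-fold by the brightest probe set. Over all measured genes 51.4% were higher in DNR Tregs, and 4.0% passed 2-fold. The list median was 0.69, against 0.01 for all measured genes. The list was chosen with earlier results of these data known, so its excess over all genes is not an independent result. Gzmb, which encodes granzyme B, had 13369 in DNR and 1793 in WT Tregs (7.46-fold higher). The chemokine gene Ccl5 had 5383 in DNR and 906 in WT Tregs (5.94-fold). Cxcr3, a chemokine receptor gene under direct control of T-bet in Tregs, was 3.35-fold and Ifng 2.87-fold higher. The fifth, Nkg7, a cytotoxic granule gene named here after its value was seen, was 2.03-fold higher (1009 in DNR and 496 in WT Tregs). Fasl was 1.24-fold lower by its brightest probe set and further down by its other one (log2 ratio -1.59), and Il18r1, an interleukin-18 receptor chain, was lower too (670 in DNR and 1005 in WT Tregs), so the list had no single direction. Among the relatives of Tbx21, 6 of 12 T-box genes with a probe set were below the floor on both arrays and none of the other 6 differed by 2-fold (median 0.25, but -0.017 under a floor at the 60th percentile and -0.22 without one, with 3 above the floor in DNR Tregs alone and 1 in WT Tregs alone). Mga had 1007 in DNR and 1232 in WT Tregs, and Tbx6 244 in DNR and 204 in WT Tregs.

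Gata3 encodes the zinc finger factor of Th2 cells, which Tregs also use at barrier tissues. Its signal was 3010 in DNR Tregs and 3650 in WT Tregs, 1.21-fold lower, a difference smaller than the SD between probe sets of 1 gene. The signal was at least 27.1 times the floor on both arrays, so dimness does not limit this value. Of 7 measured genes of the Th2 list all were higher in DNR Tregs but none by 2-fold, with a median of 0.30. Over all measured genes 51.4% were higher. Of the 7, 2 were above the floor in DNR Tregs alone. The log2 ratios of Gfi1 (0.03), Il4ra (0.12) and Ccr8 (0.12) were smaller than the SD between probe sets. The brightest genes of the list were Cish, a feedback inhibitor of cytokine signals (9587 in DNR and 6348 in WT Tregs), and Nfil3, a leucine zipper factor (5691 in DNR and 3391 in WT Tregs). The cytokine genes Il5 and Il13 were below the floor on both arrays. Of the GATA relatives and cofactors, Gata2 was above the floor in DNR Tregs alone (at least 3.22-fold higher, 357 in DNR and 97.1 in WT Tregs). Gata2 is known from blood progenitors and mast cells rather than from T cells. None of the other 4 measured relatives differed by 2-fold, and the median over all 5 was 0.22, but -0.060 under a floor at the 60th percentile.

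Maf encodes c-Maf, a leucine zipper factor known to promote Il10 and Il4 transcription. It had the most probe sets in one direction of the 10 factors. The brightest (1456060_at) read 8586 in DNR and 3875 in WT RNA, 2.22-fold higher (log2 ratio 1.15). The next (1447849_s_at) had 3587 in DNR and 1860 in WT Tregs, and another (1435828_at) 1169 in DNR and 677 in WT Tregs. The 2 dimmer ones had 691 and 419 in DNR Tregs, against 505 and 286 in WT Tregs. All 5 were brighter on the DNR array, with log2 ratios between 0.45 and 1.15 and a median of 0.79, so 2-fold was reached by 1 of 5. The sixth probe set was below the floor on both arrays. Of the small MAF relatives, all 3 that were measured were lower in DNR Tregs by the brightest probe set, none by 2-fold. Mafk was 1.71-fold lower (976 in DNR and 1666 in WT Tregs), Maff 1.28-fold and Mafg 1.33-fold. The other measured probe set of Mafg went slightly the other way (log2 ratio 0.09). Over all measured genes 51.4% were higher in DNR Tregs. Macrophages express Maf too. By the brightest probe set all 6 measured macrophage and monocyte markers were lower in DNR Tregs, 2 of them by at least 2-fold. Their log2 ratios ran from -0.02 for C1qb (0.03 by another of its probe sets) and -0.12 for Adgre1, within the SD between probe sets, to -1.26 for C1qa. The summed signal of these markers was 3615 in DNR and 5238 in WT Tregs, with Cd14 below the floor on both arrays. The part of such cells in the Maf values was not tested.

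Prdm1 encodes Blimp-1, a transcriptional repressor that effector Tregs and plasma cells express. Its probe set (1420425_at) read 690 in DNR and 277 in WT RNA, 2.49-fold higher (log2 ratio 1.31). Of the same 9281 genes, 96 had a higher ratio. As with Tbx21, the WT value was only 2.50 times the floor. Plasma cells are also known for this factor. Of their markers, Jchain had 193 in DNR and 195 in WT Tregs, Mzb1 131 on each array, Sdc1 was above the floor in DNR Tregs alone (142 in DNR and 50.02 in WT Tregs), and Tnfrsf17 was below it on both. The part of such cells in the Prdm1 value was not tested. The 5 plasma cell markers summed to 8756 in DNR and 9711 in WT Tregs, most of it Xbp1 (8270 in DNR and 9333 in WT Tregs), which other cells express as well.

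Effector Treg genes tied to Blimp-1 and c-Maf were brighter in 10 of 12 measured cases, against 51.4% of all measured genes. This list too was chosen with earlier results of these data known. Of the 10, 3 passed 2-fold, against 4.0% of all measured genes. None of the lower ones did, and the list median was 0.88. The 3 were Gzmb, Klrg1, a receptor of terminally differentiated lymphocytes (13855 in DNR and 5848 in WT Tregs, 2.37-fold), and Il21, which was above the floor in DNR Tregs alone (230 in DNR and 70.5 in WT Tregs, at least 2.07-fold). Gzmb is also on the T-bet and Eomes list and Il21 on the follicular helper list, so the lists do not count separate genes. Of the 12, 3 were above the floor in DNR Tregs alone, so their ratios are bounds. Of all 6133 measured genes that were higher in DNR Tregs, 4320 exceeded the floor on both arrays and the rest in DNR Tregs alone. Il10, named after its value was seen, fell just short of 2-fold, with 4468 in DNR and 2238 in WT Tregs. The 3 measured neutrophil markers were also higher at low signals, with a sum over 4 markers of 1197 in DNR and 309 in WT Tregs; their part in these values was not tested.

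Bcl6 encodes the transcriptional repressor that sets the follicular helper programme and opposes Blimp-1. Its probe sets contradicted each other. One (1421818_at) was 1.67-fold lower, at 529 in DNR and 883 in WT Tregs, and the other (1450381_a_at) was 1.75-fold higher, at 220 in DNR and 126 in WT Tregs. The WT value of the second was close to the floor of 110.9, so its ratio is the less certain one. The gap of 1.54 on the log2 scale was several times the SD of a single probe set, and no direction can be given for the gene. The follicular helper list was mixed: of 11 measured genes, 7 were brighter in DNR Tregs, with Il21 past 2-fold, and 4 dimmer, with none past it. The list median was 0.29, and 51.4% of all measured genes were brighter in DNR Tregs. Bach2, a repressor known to oppose Prdm1 and to keep T cells quiescent, was 1.79-fold lower (1675 in DNR and 3003 in WT Tregs), and its other measured probe set was lower as well (log2 ratio -0.44). Irf4, a factor known to induce Prdm1, was 1.28-fold higher (3155 in DNR and 2469 in WT Tregs). Of the 7 measured corepressors and antagonists of Bcl6 and Blimp-1, 3 were higher and 4 lower, none by 2-fold, with a median of -0.31.

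Ahr encodes the aryl hydrocarbon receptor, a ligand-activated factor that supports Treg residence in the gut and Th17 cytokines. It was the only factor at least 2-fold lower in DNR Tregs, and its ratio had the largest size of the 10. The probe set 1422631_at read 457 in DNR and 1382 in WT RNA, 3.03-fold lower (log2 ratio -1.60). Of the same 9281 genes, 37 had a lower ratio. The other probe set (1450695_at) had 7.96 in DNR and 55.0 in WT Tregs, below the floor on both, so it neither adds to nor opposes the value.

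The genes around Ahr gave no uniform picture. Of 9 genes with a probe set, Cyp1a1, Cyp1b1, Cyp1a2, Ahrr and Kit were below the floor on both arrays, so these could not be compared. Of the other 4, 2 were higher and 2 lower in DNR Tregs, with a median of 0.34 that turned to -0.076 under quantile normalization and to -0.00085 without a floor. Gpr15, a receptor for homing to the large intestine that Ahr is known to induce, was above the floor in WT Tregs alone (at least 3.86-fold lower, 104 in DNR and 428 in WT Tregs). Tiparp, a feedback inhibitor of the receptor, was nearly equal (3613 in DNR and 3871 in WT Tregs), and its other 2 probe sets were at -0.37 and -0.20. Arnt, the dimerisation partner, was 2.38-fold higher by its brightest probe set (1669 in DNR and 702 in WT Tregs), but its second went the other way (log2 ratio -0.54). Nqo1, an oxidoreductase gene of the stress response, was 1.72-fold higher at low signals (209 in DNR and 121 in WT Tregs).

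Rora encodes ROR-alpha, a nuclear receptor of Th17 cells, innate lymphoid cells and skin Tregs. It has the most probe sets, 9, of which 6 exceeded the floor on each array. The brightest (1424034_at) had 2003 in DNR and 1671 in WT Tregs, and a second (1455165_at) 1727 in DNR and 1786 in WT Tregs. The 6 log2 ratios lay between -0.07 and 0.66 with a median of 0.28, 4 of them higher and 2 lower. No probe set reached 2-fold, and the spread among them was as large as their distance from zero. Of 7 measured ROR and Th17 genes 5 were lower in DNR Tregs, and Il17re, an interleukin-17 receptor family gene, was the one lower by at least 2-fold (2.29-fold, 136 in DNR and 311 in WT Tregs). Nr1d1, another of the 5, was above the floor in WT Tregs alone (17.3 in DNR and 127 in WT Tregs), so its ratio is a bound. Over all measured genes 51.4% were higher in DNR Tregs and 2.93% were at least 2-fold lower. The list median was -0.34 by the brightest probe sets and -0.00059 where a gene's probe sets were summarised by their median, and Il17a was below the floor on both arrays. Rora and Gata3 also mark group 2 innate lymphoid cells. Of 5 listed markers of those cells, 3 had a probe set of a single gene, and all 3 were below the floor on both arrays. The part of such cells in the Rora and Gata3 values was not tested.

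Id2 is an inhibitor that binds E proteins and keeps them off DNA, and effector lymphocytes are known for it. Its brightest probe set (1435176_a_at) had 7612 in DNR and 4381 in WT Tregs, 1.74-fold higher, and a second (1422537_a_at) had 3274 in DNR and 1820 in WT Tregs, 1.80-fold higher. These 2 differed by less than the usual disagreement between probe sets. The third (1453596_at) was dim, with 197 in DNR and 214 in WT Tregs, and went slightly the other way. Id3, the inhibitor known from naive T cells, was nearly equal (1510 in DNR and 1571 in WT Tregs). The 6 genes of Id and E proteins had a median of -0.06, with 2 higher and 4 lower in DNR Tregs. The E protein partners of Id2 differed by less than 2-fold: Tcf12 had 4877 in DNR and 5259 in WT Tregs, with its other 3 probe sets between -0.87 and 0.79, and Tcf4 was 1.70-fold higher at 343 in DNR and 202 in WT Tregs.

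Hopx encodes a small homeodomain protein without DNA binding, which is known from induced Tregs and Th1 cells. It was bright and nearly equal in both genotypes, with 11678 in DNR and 11437 in WT Tregs by one probe set (1428662_a_at) and 2782 in DNR and 2657 in WT Tregs by the other (1451776_s_at). The log2 ratios were 0.03 and 0.07. The second probe set, like the second for Maf, is of a class (_s_at) that may bind several transcripts.

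**Figure D3:**
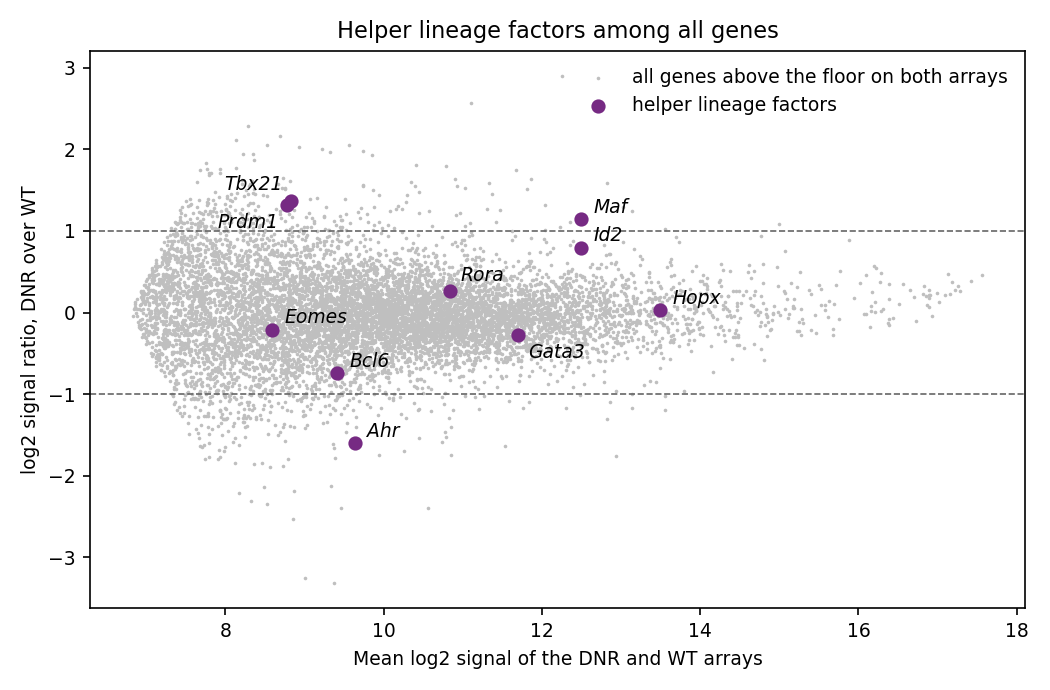
Log2 ratio of DNR over WT signal against the mean log2 signal of both arrays for all 9281 genes that exceeded the floor on each array (grey) and for the 10 helper factors (purple), with dashed lines at 2-fold. Maf and Id2 were bright and lay above most genes, while Tbx21, Prdm1 and Ahr lay at lower signals, where the grey cloud is wider.

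**Figure D4:**
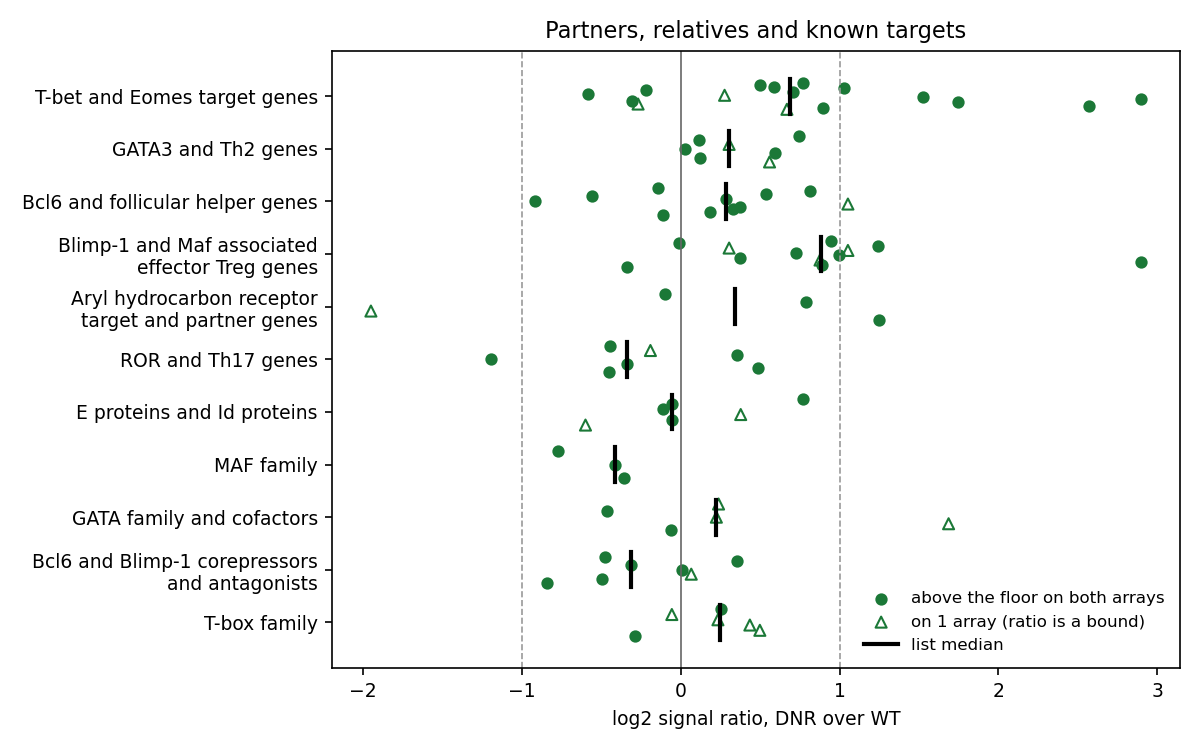
Log2 ratio of DNR over WT signal for the measured genes of 11 lists of partners, relatives and known targets of the helper factors; filled circles are genes that exceeded the floor on each array, open triangles those that did so on 1, whose ratio is a bound, and black bars list medians. The highest medians were those of the Blimp-1 and Maf list (0.88) and the T-bet and Eomes list (0.69), and the lowest that of the MAF relatives (-0.42).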

How the data were processed

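Total RNA of sorted splenic Tregs was labelled with biotin and measured on 2 Affymetrix mouse arrays, 1 per genotype. The authors deposited 1 signal intensity per probe set and array, made with MAS5 per the submitters' processing notes. The sources used here give no version, scaling target or genome build. The mean without the highest and lowest 2% of values was 500.0 on both arrays, which points to scaling before deposition.

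The 64 control probe sets were set aside, leaving 45037, of which 34945 had exactly 1 gene in the platform annotation and 10092 none or several. No genome build is named, so genes carry no coordinates; promoter sequences keep those of RefSeq. The higher array median, 110.9, replaced values below it, and log2 followed. The probe set brightest on average stands for its gene, which counts as measured if that exceeds the floor on at least 1 array. With the other array at the floor, a fold is a bound, written "at least". The number of arrays limits the precision, and differences are described by size with a 2-fold threshold.

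The members and lists were chosen with earlier results of these data known. The lists hold 163 genes, of which 141 had a probe set of a single gene. Every member is named with its probe sets. From each list up to 4 genes with the largest differences of at least 2-fold are named, or else the 2 brightest; other names were added after their values were seen. Marker lists covered T cells, NK, CD8 T, B, germinal centre B, plasma, innate lymphoid, macrophage, neutrophil and dendritic cells. The signal range used as a second background and the promoter motifs were chosen after seeing the data. The procedure was tested on simulated data, with effects larger than any of the factors showed. They were added only to genes with a WT signal further above the floor than those of Tbx21 and Prdm1. Only the recovery of added effects was checked, not false calls, so the simulation does not cover the differences reported here. Alternatives changed the floor, scaling, representative probe set, probe set classes and threshold. Python 3.11.15 with pandas 2.3.3 was used.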

Additional observations from a re-analysis of the deposited data

How the results depend on the processing

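Under 7 alternatives (a floor at the 40th or 60th percentile, none, a median log2 ratio set to 0, quantile normalization, the median over a gene's probe sets, and no probe sets ending in _s_at or _x_at) 9 of the 10 factors kept their direction. The other floors and the removal of probe set classes could not change any factor's value, since the brightest probe set of each lay above every floor and in neither class; 45 of the 70 values were identical to those reported. Under the 2 rescalings Tbx21, Prdm1, Maf and Ahr stayed at least 2-fold different. With the median over probe sets Maf was at 0.79, Eomes at -0.59 and Bcl6 at 0.03, where Bcl6 changed direction. Of the 70 values 68 lay within 1 probe set SD of those reported. At a threshold of 3-fold 0 factors were higher and 1 lower, and at 1.5-fold 4 were higher and 2 lower, Bcl6 among the lower. Without a floor, list medians moved to 0.67 (Th2), 1.12 (GATA relatives) and -0.22 (T-box relatives), and under the higher floor to -0.060 (GATA relatives) and -0.017 (T-box relatives). The aryl hydrocarbon receptor list moved to -0.076 with quantile normalization and to -0.00085 without a floor, and with the median over probe sets the ROR and Th17 list to -0.00059; the cause was not tested. The 477 genes at least 2-fold higher and 350 lower became 1026 and 550 under the lower floor, 250 and 246 under the higher one, and 3617 and 2655 without any. No paired analysis was possible because each genotype has 1 array. Signals near the floor limit the ratios of dim genes.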

Other observations

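Markers of other cells spanned a wide range of signals. CD8 T cell genes were near the floor, with Cd8a at 198 in DNR and 148 in WT Tregs and Cd8b1 at 171 in DNR and 294 in WT Tregs. Of the B cell genes, Cd79b had 869 in DNR and 666 in WT Tregs, Ms4a1 was above the floor in WT Tregs alone (76.4 in DNR and 126 in WT Tregs), and Cd79a and Pax5 were below it on both arrays. The germinal centre genes Fas (1543 in DNR and 1249 in WT Tregs) and S1pr2 (228 in DNR and 270 in WT Tregs) differed by less than 2-fold, and activated T cells express Fas as well. The dendritic cell genes Siglech (157 in DNR and 82.9 in WT Tregs) and Itgax (120 in DNR and 9.29 in WT Tregs) were above the floor in DNR Tregs alone, and Flt3 and Zbtb46 were below it on both arrays. The macrophage genes C1qa and Vcam1 were 2.39-fold and 2.04-fold lower in DNR Tregs, and Csf1r, a growth factor receptor gene of macrophages, had 1449 in DNR and 1799 in WT Tregs. The neutrophil genes Mmp9 (2.93-fold), Ngp (at least 2.59-fold) and S100a8 (at least 2.57-fold) were higher. The part of these cells in the values of the helper factors was not tested.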
